A study of Mus musculus with 12 samples.

Results

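Retinal ganglion cells are the output neurons of the retina, and their axons form the optic nerve. The 10 genes described here are commonly used to recognise these cells: Rbpms, Pou4f1, Pou4f2, Pou4f3, Slc17a6, Sncg, Nefl, Nefm, Nefh and Thy1. They were taken by name from a deposited table of 32517 usable gene entries, and all 10 were found and passed the filter on low counts, as did 15134 genes in all. Their level was measured at each circadian time, and the difference between genotypes was tested over all times.

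The study compared male mice aged 12 weeks with a retina-specific deletion of Nr3c1, the gene for the glucocorticoid receptor (Cre-positive, called cKO), and mice with the intact gene (Cre-negative, called WT). The driver of Cre is not named in the labels, and anything else that came with Cre cannot be told apart from loss of the receptor. All mice lived in 12 h of light and 12 h of darkness for 2 weeks and were then moved to constant darkness, where whole eyes were collected on day 2 every 4 h, at circadian times (CT) 2, 6, 10, 14, 18 and 22. The RNA of 3 mice was pooled for each genotype and time, which gave 12 libraries, 6 per genotype and 1 per genotype and time, so variation from mouse to mouse cannot be seen. The labels disagree on the source, since the protocols name whole eyes and the characteristics a ciliary epithelial line, and transcripts of lens, photoreceptors, muscle and cornea were all present.

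Ganglion cells are a small share of the retina, and the retina is a part of the eye. The POU4F transcription factors set up and maintain ganglion cell identity during development. The neurofilament proteins form the internal scaffold of long axons, and the vesicular transporter encoded by Slc17a6 loads glutamate, the transmitter that ganglion cells release in the brain. In mice, loss or injury of ganglion cells is commonly followed by a fall of these transcripts. In pooled tissue, fewer cells of a type and less RNA per cell cannot be told apart.

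Libraries held 10466253 to 10686868 counts. Nr3c1 ran from 38.8 to 49.5 CPM (counts scaled to a common library size by TMM) in cKO eyes, against 55.3 to 76.0 CPM in WT eyes, with no overlap and a log2 difference of -0.52 ± 0.06 (SE, adjusted p = 0.0018, edgeR). These reads include tissue outside the retina and the deleted exons are not named, so the completeness of the deletion is not known from them. The pseudogene Rps13-ps1, singled out after its values were seen, had 136 counts in cKO at CT2 and 0 at the other cKO times. In WT it had 954 to 1142 counts at the first 4 times, but 0 at CT18 and 55 at CT22. The WT libraries of CT18 and CT22 therefore stood with the cKO libraries in this transcript, and the estimates of all 10 genes are also given below without these times.

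A pair of promoters is shown because their genes had the lowest and the highest estimated genotype difference among the 10. Each is the 250 bases that end just before the RefSeq transcription start (GRCm38.p6), read on the minus strand. The Sncg sequence lies at chr14:34374670-34374919 and has 61.6% G and C. The Pou4f2 sequence lies at chr8:78436648-78436897 and has 70.8%. In the GENCODE M21 annotation Sncg spans 34370274 to 34374789, so part of the Sncg sequence shown lies inside that gene model.

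Sncg: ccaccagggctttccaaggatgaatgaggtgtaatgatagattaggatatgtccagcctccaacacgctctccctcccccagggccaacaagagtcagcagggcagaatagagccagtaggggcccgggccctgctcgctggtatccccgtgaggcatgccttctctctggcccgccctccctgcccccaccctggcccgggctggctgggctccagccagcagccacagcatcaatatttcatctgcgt

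Pou4f2: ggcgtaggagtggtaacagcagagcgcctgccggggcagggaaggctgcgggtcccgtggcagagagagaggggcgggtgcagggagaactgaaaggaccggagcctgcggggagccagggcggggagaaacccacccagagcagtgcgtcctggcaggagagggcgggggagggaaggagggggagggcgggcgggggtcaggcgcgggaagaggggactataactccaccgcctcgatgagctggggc

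No base is in capitals because no motif searched was found. The search covered both strands of the RefSeq windows from 250 bases before to 50 after the start, which existed for 4 of the 10 genes (Pou4f1, Pou4f2, Slc17a6 and Sncg, 5 windows in all). It looked for the E-box CACGTG, bound by clock activators, and the D-box TTATGTAA, bound by clock output factors. It also looked for the glucocorticoid response element, written as AGAACA and TGTTCT with 3 bases between them, and for AGAACA alone, which the full element contains. None of the 5 windows held any of these. Among all 32851 windows of this length, 7.15% held the E-box, 0.938% the D-box, 0.00913% the full element and 19.0% AGAACA alone. The short motif was thus common and the full element found in 3 windows of the genome, and a window without these letters says nothing of whether the factor acts on the gene.

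Levels can be set against each other between genes only per length, for which CPM was divided by the kilobases of exon in GENCODE M21. On this scale Nefl was the most abundant member, with a mean level over both genotypes of 86.6 CPM per kb. Sncg followed at 49.6 and Thy1 at 38.4 CPM per kb. Nefm and Nefh lay close together at 17.9 and 17.8 CPM per kb. Slc17a6 stood at 6.78, Rbpms at 5.52 and Pou4f1 at 4.84 CPM per kb. The other POU4F factors were lowest, with Pou4f2 at 2.23 and Pou4f3 at 1.44 CPM per kb. All 10 transcripts were therefore detected in all 12 libraries, from 26 to 50 counts for Pou4f3 up to 2856 to 3503 counts for Nefl. No source used here gives the annotation behind the counts, and these lengths may not be the ones their counts refer to.

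**Figure D1:**
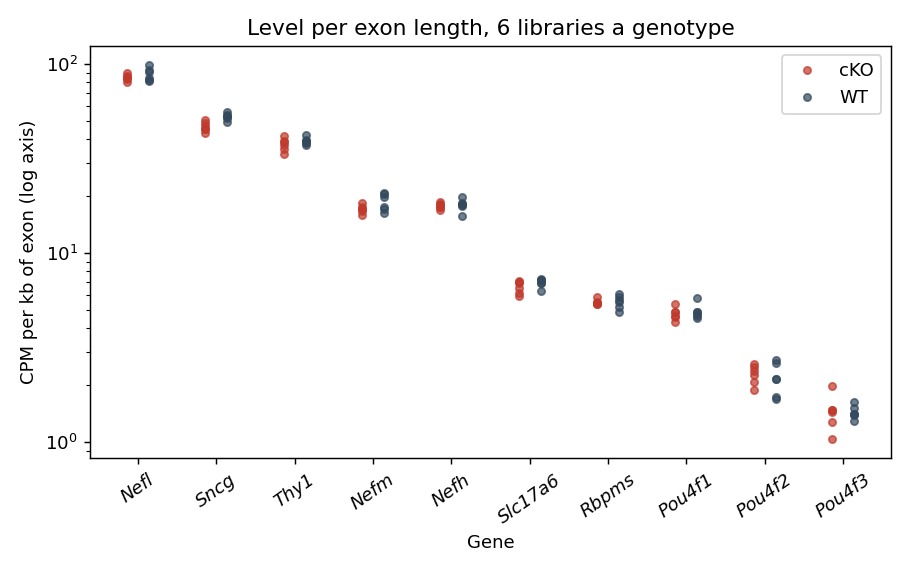
Level of each of the 10 genes in CPM per kilobase of GENCODE M21 exon on a log axis, 1 point per library, 6 libraries in cKO (left of each pair) and 6 in WT (right). Nefl averaged 86.6 and Pou4f3 1.44 CPM per kb, and the genotypes overlapped for every gene.

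No member passed the genotype test. Of the 10, 9 had an estimate below 0, and their median log2 difference, cKO minus WT, was -0.05, while 50.1% of all tested genes had an estimate below 0 and their median was -0.00016. In edgeR 0 of 10 passed at an adjusted p below 0.05, where 0.139% of all tested genes passed (21 genes, 10 higher and 11 lower in cKO). DESeq2 and limma-trend passed 0 members as well. At an unadjusted p below 0.05, 2 members were lower in cKO by edgeR (Sncg and Nefm), while 1 member reached that p in DESeq2 and 2 in limma-trend, against 2.91% of all tested genes that were lower at that level in edgeR. For 9 of the 10 genes the 95% interval of the log2 difference lay within 0.3 of 0 on both sides, and Pou4f3, the least abundant, was the exception.

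Sncg, which encodes gamma-synuclein, a small cytoplasmic protein abundant in ganglion cells, had the largest estimate. In order from CT2 to CT22 it stood at 41.5, 36.8, 40.2, 42.8, 38.5 and 38.7 CPM in cKO eyes, against 47.4, 44.2, 45.2, 45.6, 44.5 and 42.2 CPM in WT eyes. The cKO library was lower at each of the 6 times, although the ranges overlapped, since the highest cKO value (42.8) lay above the lowest WT value (42.2). The means were 39.7 ± 2.2 CPM in cKO and 44.8 ± 1.7 CPM in WT (SD, n = 6 each). The log2 difference was -0.17 ± 0.04 (SE, 95% interval -0.27 to -0.08), a change of -11.4% in cKO, and it did not pass over all genes (adjusted p = 0.314, edgeR). Sncg was the only member lower in all 6 pairs of libraries of the same time, a pattern shown by 1.67% of all tested genes. It ranked 57 of 15134 genes by the p of this test.

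**Figure D2:**
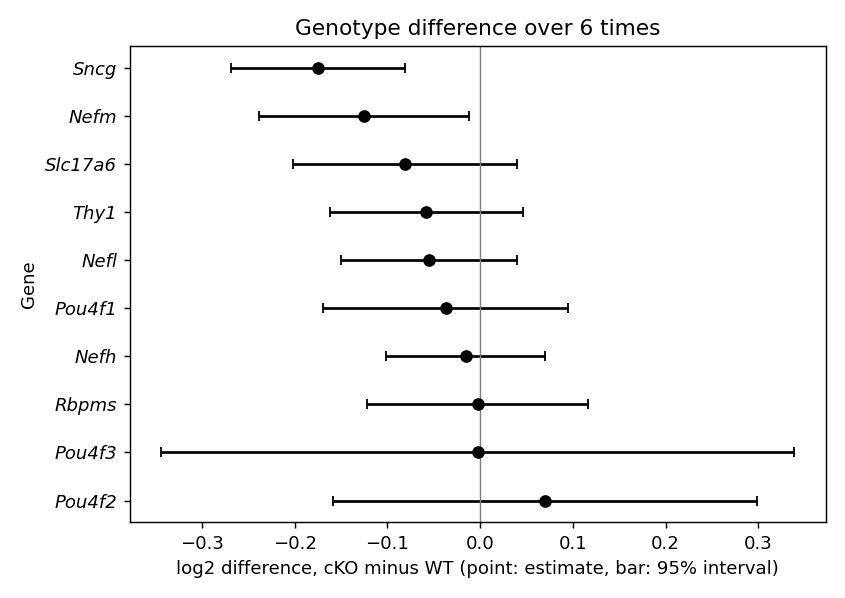
Log2 difference between cKO and WT for each of the 10 genes (x axis, edgeR estimate over 6 times with circadian time as a factor), with 95% intervals as bars. The interval of Sncg runs from -0.27 to -0.08 and that of Pou4f3 from -0.34 to 0.34; none passed after adjustment over all genes.

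The neurofilament subunits were described next. Nefl, the light subunit on which the filament core is built, was at 288, 291, 273, 281, 305 and 283 CPM in cKO eyes at CT2 to CT22, against 335, 306, 274, 314, 277 and 287 CPM in WT eyes. Nefm, the medium subunit, was at 102, 98.6, 91.4, 96.7, 106 and 98.6 CPM in cKO eyes, against 115, 118, 99.3, 120, 94.6 and 101 CPM in WT eyes. Nefh, the heavy subunit that is heavily phosphorylated in mature axons, was at 74.0, 71.9, 69.6, 72.7, 67.0 and 69.6 CPM in cKO eyes, against 78.8, 71.8, 72.6, 73.2, 62.5 and 71.0 CPM in WT eyes. All 3 subunits were higher in cKO than in WT at CT18, and Nefl and Nefm were lower in cKO at the other 5 times. The ranges of the genotypes overlapped for each subunit.

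The log2 difference of Nefm was -0.13 ± 0.05 (SE, 95% interval -0.24 to -0.01, adjusted p = 0.815). That of Nefl was -0.06 ± 0.04 (-0.15 to 0.04, adjusted p = 0.931) and that of Nefh -0.016 ± 0.040 (-0.10 to 0.07, adjusted p = 0.981). None passed. Without CT18 and CT22 the estimate of Nefm was -0.22 (adjusted p = 0.134) and that of Nefl -0.11 (adjusted p = 0.791), and these also did not pass. In GENCODE M21 a model of Nefm on the minus strand of chromosome 14 (68082590 to 68124846) spans Nefl on the plus strand (68083863 to 68089095). Whether the counting used strand is not given, so reads of this pair may be shared. Of the per-length neurofilament level, Nefl made up 70.9% ± 0.6 in cKO and 70.7% ± 0.8 in WT, Nefm 14.3% ± 0.3 in cKO and 14.9% ± 0.7 in WT, and Nefh 14.8% ± 0.8 in cKO and 14.4% ± 0.7 in WT (SD, n = 6 each). The proportions of the subunits thus differed by no more than about the spread between libraries.

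The POU4F transcription factors, known also as BRN3A, BRN3B and BRN3C, were low in whole eyes. Pou4f1 (BRN3A) was at 22.7, 21.5, 21.6, 20.2, 24.9 and 22.9 CPM in cKO eyes at CT2 to CT22, against 26.9, 21.6, 21.1, 22.2, 22.8 and 22.9 CPM in WT eyes. Pou4f2 (BRN3B), which mouse ganglion cells need for normal differentiation and survival, was at 7.60, 8.28, 6.68, 7.21, 8.0 and 6.05 CPM in cKO eyes, against 8.71, 8.39, 6.93, 5.57, 6.94 and 5.40 CPM in WT eyes. Pou4f3 (BRN3C), which marks a subset of ganglion cells and is also needed by hair cells of the inner ear, was at 3.46, 2.48, 3.05, 3.56, 3.52 and 4.73 CPM in cKO eyes, against 3.35, 3.35, 3.65, 3.36, 3.90 and 3.11 CPM in WT eyes. For each factor the ranges of the genotypes overlapped.

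Pou4f2 was the only member with an estimate above 0, a log2 difference of 0.07 ± 0.11 (SE, 95% interval -0.16 to 0.30, adjusted p = 0.957). Pou4f1 gave -0.04 ± 0.06 (-0.17 to 0.09, adjusted p = 0.960). Pou4f3 gave -0.0027 ± 0.16 (-0.34 to 0.34, adjusted p = 0.998), and its sign turned in 4 of 13 alternatives. At 26 to 50 counts per library for Pou4f3 and 58 to 91 for Pou4f2, the coefficient of variation that counting alone would give at the mean count was 16.5% and 11.5%. The observed one was 21.4% in cKO and 8.0% in WT for Pou4f3, and 11.4% in cKO and 19.7% in WT for Pou4f2. A change of a few percent in these factors was not detectable at this depth.

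The remaining members are an RNA-binding protein, a transporter and a surface protein. Rbpms, an RNA-binding protein found in all classes of mammalian ganglion cells and also in smooth muscle, was at 35.7, 35.3, 35.8, 36.0, 35.3 and 38.6 CPM in cKO eyes at CT2 to CT22, against 40.0, 33.9, 38.6, 36.8, 36.0 and 32.1 CPM in WT eyes. Slc17a6, the vesicular glutamate transporter VGLUT2, was at 37.3, 38.2, 31.9, 35.3, 37.7 and 33.1 CPM in cKO eyes, against 38.7, 37.4, 38.9, 39.5, 33.9 and 37.3 CPM in WT eyes. Thy1, a lipid-anchored surface glycoprotein that fibroblasts and T cells also carry, was at 100, 116, 112, 106, 118 and 125 CPM in cKO eyes, against 117, 116, 111, 127, 118 and 114 CPM in WT eyes. Each of the 3 was lower in cKO at 4 of 6 times, and the ranges overlapped.

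The log2 difference was -0.0027 ± 0.056 for Rbpms (SE, 95% interval -0.12 to 0.12, adjusted p = 0.996). It was -0.08 ± 0.06 for Slc17a6 (-0.20 to 0.04, adjusted p = 0.917) and -0.06 ± 0.05 for Thy1 (-0.16 to 0.05, adjusted p = 0.934). Single times moved both by more than 1.5 times. Slc17a6 was at -0.04 without CT10 and at -0.13 without CT18, and Thy1 at -0.02 without CT14 and at -0.10 without CT22. Rbpms, the marker that covers ganglion cells most broadly, thus had group means of 36.1 ± 1.2 CPM in cKO and 36.2 ± 2.9 CPM in WT (SD, n = 6 each). No member had groups that did not overlap, against 0.218% of all tested genes.

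The members did not hold one direction at every time. At CT2, 9 of 10 were lower in cKO than in WT, with a median log2 ratio of -0.18. The number lower was 7 at CT6, 8 each at CT10 and CT14, 4 at CT18 and then 6 at CT22, and the median log2 ratio at CT18 was 0.12. There was 1 library per genotype at each time, so these ratios have no test. The share of all tested genes lower in cKO at each single time was not computed. These counts therefore cannot be told from a shift of a whole library. The WT library of CT2 held the highest value of all 12 libraries for 6 members (Rbpms, Pou4f1, Pou4f2, Sncg, Nefl and Nefh), and the WT library of CT14 for 3 (Slc17a6, Nefm and Thy1). The lowest value was in the cKO library of CT10 for Slc17a6, Nefl and Nefm. How many of all tested genes had their highest or lowest value in each library was not computed. Summed over the 10 genes, the level was 685 to 743 CPM in cKO and 700 to 811 CPM in WT, with the highest sum in WT at CT2.

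**Figure D3:**
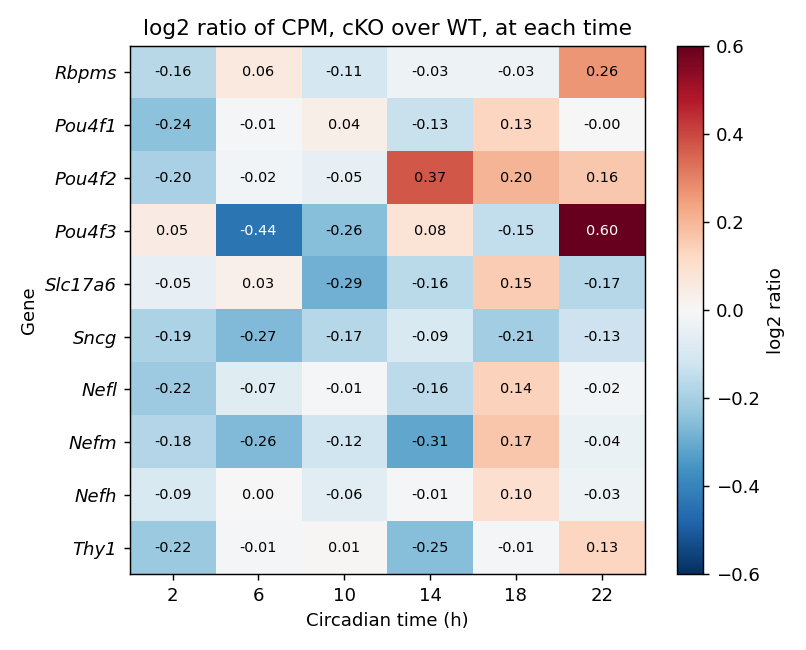
Log2 ratio of CPM in cKO over WT for each of the 10 genes (rows) at each circadian time in hours (columns), from 1 library per genotype and time. Sncg is below 0 in all 6 columns, while 9 of 10 genes are below 0 at CT2 and 4 of 10 at CT18.

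Without the CT2 pair of libraries 7 of 10 members had an estimate below 0 and the median was -0.02. Without the CT14 pair the median was also -0.02, with 8 below 0. Without CT18 it was -0.07, with 7 below 0. With CT18 alone left out, 4 members had an unadjusted p below 0.05 in edgeR. For the fits with times left out, the share of all tested genes at that p was not computed. Leaving out both CT18 and CT22, where the WT libraries had little or no Rps13-ps1, the median was -0.12 with 9 below 0, and no member passed (smallest adjusted p = 0.134, Nefm, 3 members at an unadjusted p below 0.05). In that case the estimates were -0.06 for Rbpms, -0.09 for Pou4f1, 0.02 for Pou4f2, -0.13 for Pou4f3, -0.12 for Slc17a6, -0.18 for Sncg, -0.11 for Nefl, -0.22 for Nefm, -0.04 for Nefh and -0.12 for Thy1. With single times left out, Nefl ran from -0.09 (without CT18) to -0.02 (without CT2) and Nefm from -0.18 (without CT18) to -0.09 (without CT14). Nefh ran from -0.04 (without CT18) to -0.00030 (without CT2), and Pou4f2 from 0.01 (without CT14) to 0.13 (without CT2). The median over the members thus moved by more than 1.5 times with the choice of times, whereas the estimate of Sncg stayed between -0.19 and -0.16 in all 13 alternatives.

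Variation over the day was tested with a 24 h cosine and sine common to both genotypes, where 3.46% of all tested genes passed (523 genes). None of the 10 members passed in edgeR, and none had an unadjusted p below 0.05, nor did any pass in DESeq2 or limma-trend. The smallest adjusted p was that of Pou4f1 (0.372), with an amplitude, the log2 distance from mean to peak, of 0.10 ± 0.04 (SE) and a fitted peak at CT 22.9. Nefh had an amplitude of 0.06 ± 0.03 with a fitted peak at CT 5.1 (adjusted p = 0.437). Fitted on all times, the ranges from trough to peak were 1.26-fold for Pou4f3 and 1.24-fold for Pou4f2, and 1.01-fold for Rbpms. Fitted in each genotype alone, Rbpms had an amplitude of 0.04 with a peak at CT 21.6 in cKO and of 0.05 with a peak at CT 9.0 in WT, and neither passed. Single times moved the amplitudes by more than 1.5 times. That of Nefh was 0.02 without CT18 and 0.11 without CT14, that of Pou4f2 0.10 without CT6 and 0.31 without CT18, and that of Pou4f1 0.15 without CT22. No member passed in these fits. Nefh without CT14, Pou4f2 without CT18 and Pou4f1 without CT22 each had an unadjusted p below 0.05 in edgeR. For these fits too, the share of all tested genes at that p was not computed. The median amplitude of the members was 0.04, against 0.08 over all tested genes.

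A test for any difference between times, with time as a factor, also called 0 of 10 members in edgeR, where 1.93% of all tested genes passed. None had an unadjusted p below 0.05 in it. The test of a difference of the 24 h terms between genotypes called 0 of 10, none at an unadjusted p below 0.05, while 0.0132% of all tested genes passed (2 genes). Ordered by the mean of both genotypes, 6 members were highest at CT2 (Rbpms, Pou4f1, Slc17a6, Sncg, Nefl and Nefh), 2 at CT6 (Pou4f2 and Nefm) and 2 at CT22 (Pou4f3 and Thy1). Of the 50 steps between neighbouring times in these orders, both libraries lay above both libraries of the next time in 7. In the other 43 steps the neighbouring times did not differ beyond the spread between genotypes.

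**Figure D4:**
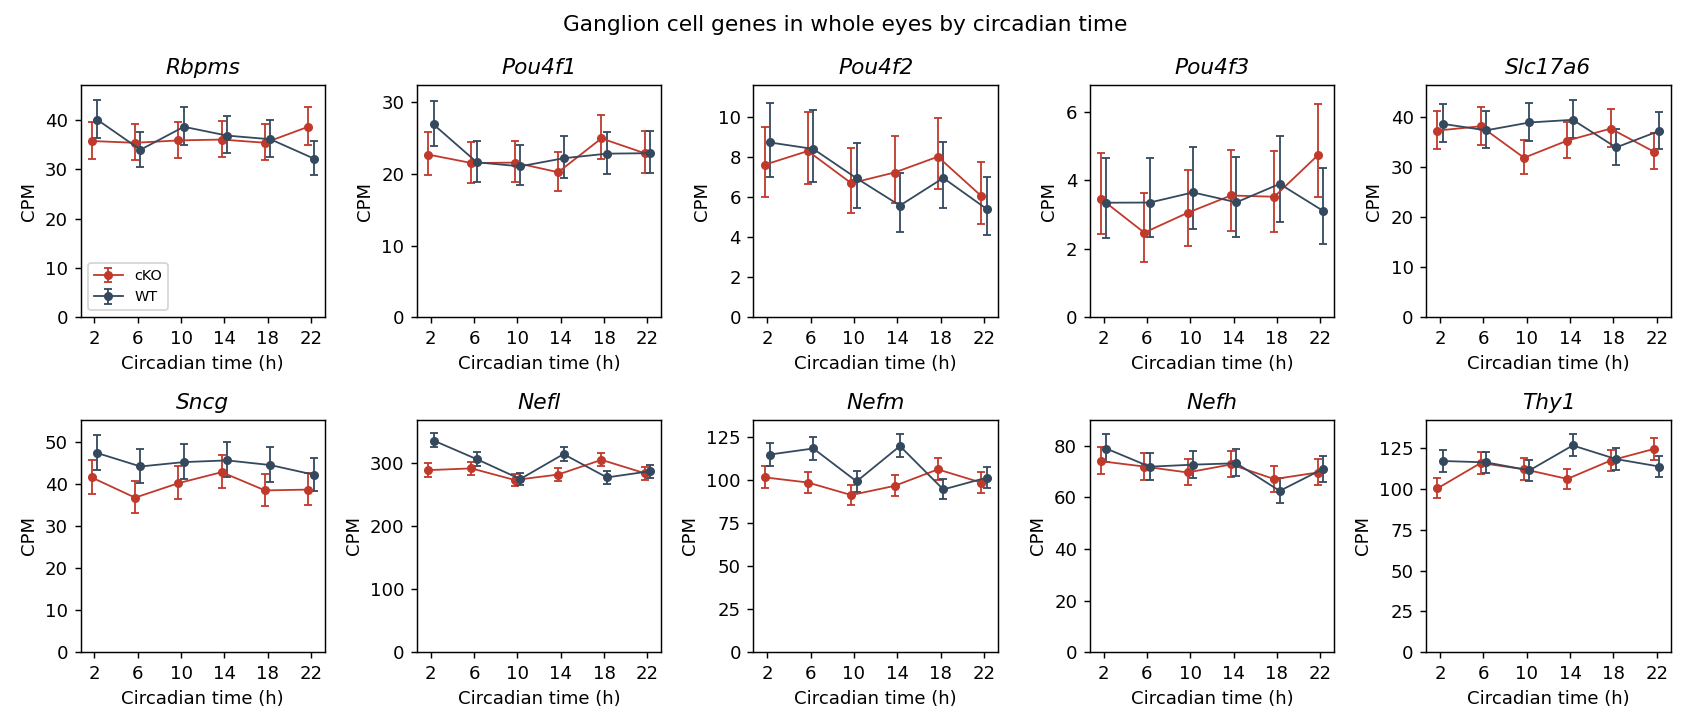
Level of each of the 10 genes in CPM (y axis, from 0) against circadian time in hours, with cKO in red and WT in dark blue. Points are single pooled libraries and bars are exact 95% Poisson intervals of the count, which cover counting error only; Sncg is lower in cKO at all 6 times and no gene passed a rhythm test.

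The members varied together only in part. Over the 12 libraries, which share their depth and scaling, the closest pair was Nefl and Nefm, with Pearson's r = 0.88 between their log2 CPM. Slc17a6 and Nefm followed at r = 0.69 and Pou4f1 and Nefl at r = 0.68. Over all 45 pairs the median r was 0.22, and the lowest was -0.36, between Pou4f3 and Slc17a6. The 8 genes whose profile was most like the mean profile of the members, out of 12548 candidates, were Ncoa7 (r = 0.90), Ttll5 (0.89), Arhgap20 (0.89), Vamp7 (0.88), Vamp1 (0.84), Zfp386 (0.84), Frs3 (0.83) and Dnlz (0.83). These values are a description over 12 libraries and rest on the highest of many candidates.

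Other genes of ganglion cells were grouped by role. Among 15 tested regulators of ganglion cell fate 0 passed the genotype test, with 9 estimates below 0 and 6 above and a median log2 difference of -0.0082. The smallest p values in that group belonged to Ebf2 (1.33 ± 0.28 CPM in cKO and 1.80 ± 0.58 CPM in WT), Barhl2 (12.99 ± 1.7 and 11.7 ± 0.9 CPM, cKO and WT) and Ebf1 (17.7 ± 2.2 and 18.9 ± 3.4 CPM, cKO and WT; SD, n = 6 each). Among 18 axon and cytoskeleton genes 0 passed, with 10 estimates below 0 and a median of -0.010. In that group Stmn2, a regulator of microtubules in growing axons, was at 42.3 ± 2.1 CPM in cKO and 45.4 ± 2.5 CPM in WT, lower in cKO at 5 of 6 times. Nrcam, an adhesion molecule of axons, went the other way, at 106 ± 3.0 CPM in cKO and 99.3 ± 8.0 CPM in WT, and was lower in cKO at 1 of 6 times. Gap43, a growth cone protein, was at 19.8 ± 1.7 CPM in cKO and 21.2 ± 1.9 CPM in WT. Among 14 channels and receptors 0 passed, with 6 estimates below 0 and a median of 0.02. In that group Glra1, a glycine receptor subunit, was at 3.20 ± 0.43 CPM in cKO and 2.65 ± 0.59 CPM in WT. Kcnc1, a fast potassium channel, was at 91.6 ± 3.9 CPM in cKO and 87.9 ± 4.1 CPM in WT, and Scn8a, a sodium channel of axons, at 70.8 ± 3.6 CPM in cKO and 67.9 ± 5.5 CPM in WT. Counts at an unadjusted p below 0.05 in these 3 groups were 0, 1 and 0.

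Markers of ganglion cell subtypes were tested as well. Of 21 genes 0 passed the genotype test and 14 had an estimate below 0, and the median was -0.03. An unadjusted p below 0.05 was reached by 3, of which 2 were lower in cKO. The lowest p belonged to Penk, the enkephalin precursor, at 72.9 ± 10.53 CPM in cKO and 84.6 ± 12.5 CPM in WT (log2 difference -0.21 ± 0.06 SE, adjusted p = 0.507). Mmp17, a metalloproteinase, was higher in cKO at 5 of 6 times, at 19.3 ± 3.6 CPM in cKO and 16.7 ± 0.4 CPM in WT (log2 difference 0.20 ± 0.08 SE, adjusted p = 0.797). Spp1, the osteopontin gene that marks alpha ganglion cells, was lower in cKO at 6 of 6 times (33.2 ± 4.4 CPM in cKO and 36.2 ± 6.6 CPM in WT, log2 difference -0.12 ± 0.05 SE, adjusted p = 0.815). With time as a factor 3 of the 21 passed in edgeR, against 1.93% of all tested genes. These were Spp1 (adjusted p = 0.00757), Cartpt (0.0327) and Pvalb (0.0397). In the 24 h test 1 of the 21 passed, against 3.46% of all tested genes. It was Cartpt, a neuropeptide precursor of direction-selective ganglion cells, with a 1.35-fold range and a fitted peak at CT 10.6 (adjusted p = 0.0099, edgeR). Spp1, Cartpt and Pvalb are also made by other cells of the eye. Of 7 tested skeletal muscle genes, 6 passed the test with time as a factor and 0 the 24 h test. Whether muscle in the samples shaped the values of these markers was not tested.

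Genes that respond to ganglion cell injury gave no call. Of 10 tested, 0 passed, 4 had an estimate above 0, and the median was -0.0016. Chac1, a glutathione-degrading enzyme of the stress response, alone had an unadjusted p below 0.05, at 27.5 ± 1.6 CPM in cKO and 24.1 ± 3.3 CPM in WT (log2 difference 0.20 ± 0.07 SE, adjusted p = 0.65). Trib3, another gene of the stress response, was at 6.45 ± 1.23 CPM in cKO and 7.71 ± 2.11 CPM in WT. Sprr1a, a growth-associated gene in injured neurons that epithelia also express, was at 2.37 ± 2.47 CPM in cKO and 1.37 ± 0.63 CPM in WT. Sncb (beta-synuclein), a relative of Sncg, was at 268 ± 13 CPM in cKO and 258 ± 14 CPM in WT (log2 difference 0.06 ± 0.04 SE, adjusted p = 0.917). Slc17a7 (VGLUT1), the transporter of photoreceptors and bipolar cells, was at 1479 ± 149 CPM in cKO and 1420 ± 85 CPM in WT, and Slc17a8 (VGLUT3) at 12.97 ± 1.5 CPM in cKO and 12.8 ± 0.8 CPM in WT; neither passed.

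Markers of other cells that could carry these transcripts, or change their share of the eye's RNA, were summed per library. The 12 amacrine genes summed to 1117 to 1205 CPM in cKO and 1134 to 1189 CPM in WT, with 6 estimates on each side of 0. Horizontal cells also hold neurofilaments. Their 5 genes summed to 178 to 194 CPM in cKO and 171 to 215 CPM in WT. Prox1 alone averaged 130 CPM in each genotype, so it made up most of this sum. Of the 5 estimates 2 were below 0 and 3 above. Calb1, below 0, was lower in cKO at 6 of 6 times (log2 difference -0.13 ± 0.05 SE, adjusted p = 0.673, edgeR). The 10 rod genes summed to 40051 to 52028 CPM in cKO and 40859 to 48259 CPM in WT, with 9 estimates above 0. The 10 bipolar genes summed to 1258 to 1341 CPM in cKO and 1250 to 1395 CPM in WT, and the 10 oligodendrocyte genes of the optic nerve to 597 to 767 CPM in cKO and 572 to 747 CPM in WT. The retinal lists thus overlapped between genotypes. For Thy1, the 8 stromal genes summed to 615 to 1147 CPM in cKO and 718 to 1397 CPM in WT, with all 8 estimates below 0, and the 7 T cell genes to 5.0 to 7.6 CPM in cKO and 4.1 to 8.3 CPM in WT. For Rbpms, the 8 smooth muscle and pericyte genes summed to 541 to 662 CPM in cKO and 546 to 634 CPM in WT, with 3 estimates below 0. The 11 lens genes summed to 48254 to 64792 CPM in cKO and 37122 to 56450 CPM in WT, with all 11 estimates above 0. Their median log2 difference was 0.16, and their sum was lower in cKO at 1 of 6 times. Of the 11, 10 were higher in cKO at an unadjusted p below 0.05 in edgeR, and 0 passed after adjustment. In these lists the 24 h test passed 1 of 10 bipolar genes (Grm6) and 3 of 10 rod genes (Sag, Nr2e3 and Rcvrn). It also passed 1 of 8 smooth muscle and pericyte genes (Myh11), against 3.46% of all tested genes. None passed in the other lists summed here. The fitted ranges of the genes that passed were 1.28-fold, 1.66-fold, 1.67-fold, 1.43-fold and 1.43-fold, in the order named. No gene of these lists was at 0 in every library. Their part in the values of the members was not tested.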

How the data were processed

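RNA sequencing of whole eyes gave 12 libraries, each from the pooled RNA of 3 mice. The deposited table, titled raw data by the authors, holds whole-number counts for each gene. For the aligner, counting tool, genome build, annotation and use of strand, the answer is not given in the sources used here. Of 32544 entries, 27 with names turned into dates were left out, a median of 0.158% of the counts.

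Counts were filtered with filterByExpr by genotype (minimum count 10, minimum total 15) and scaled by TMM (edgeR 4.0.16, R 4.3.3). Genotype was tested as cKO minus WT across all genes with a term for each time (5 residual degrees of freedom), by the edgeR quasi-likelihood test, since libraries of the same time form the pairs. The 24 h rhythm used a cosine and sine beside genotype (8 residual degrees of freedom), and the rhythm difference their interaction with genotype (6). P-values were adjusted by Benjamini-Hochberg over 15134 genes, with a threshold of 0.05. The SE is the one implied by the F statistic. The edgeR biological coefficient of variation common to all genes, after the genotype and time terms, was 6.06%. It leaves out counting error. The p-values measure the spread between pools. Log2 CPM used a prior count of 2.

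DESeq2 1.42.0, limma 3.58.1, DESeq2 size factors, no filter, other time terms, each genotype alone and left-out times were the alternatives. Leaving out CT18 and CT22 together was chosen after seeing the data. The 10 genes and all lists were chosen with earlier results of these data known. All 10 were named by rule, with up to 4 genes past a test from each list, otherwise up to 3 of smallest genotype p. Penk and Mmp17 were added for their unadjusted p after their values were seen. The lists of other cell types are given as summed levels and counts, with the genes past the 24 h test, which departs from that rule. A result is not reported here. Profiles were compared among genes of average log2 CPM of at least 2 with an established name. Positions and exon lengths came from GENCODE M21 and promoters from RefSeq, both GRCm38. The code was tested on simulated data.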

Additional observations from a re-analysis of the deposited data

Results flagged for a closer look

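Among the 10 genes, each genotype's 6 libraries were checked for a highest or lowest value set apart from the rest, 20 groups in all, and chance alone flags about 1 in 20 groups. Rbpms at CT22 in cKO stood at 38.57 CPM, above the other 5 cKO libraries, with a gap to the next that was 0.80 of the group's whole range. Pou4f1 at CT2 in WT stood at 26.89 CPM, above the other 5 WT libraries, with a gap of 0.69 of the range. Both gaps lay above Dixon's 95% critical value for 6 libraries. The WT library of CT2 also held the highest value of 5 other members, but the share of all tested genes highest there was not computed.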

How the results depend on the processing

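No member passed the genotype test, the 24 h test or the test of the rhythm difference in any alternative run. The genotype estimate kept its sign in 121 of 130 member values. It turned for Pou4f3 without the time term (0.0062), and when single times were left out Rbpms ran from -0.057 to 0.030, Pou4f1 from -0.071 to 0.0057 and Pou4f3 from -0.14 to 0.073. The number of genes past the genotype test was 51 without the filter, 3 without the time term, 36 without CT18 and CT22 together, and 5 to 26 with single times left out. For the 24 h rhythm it was 18 in WT alone, 70 in cKO alone, 292 with time as a factor, and 217 to 368 with single times left out. For the rhythm difference it was 7 without the filter, 5 in DESeq2, and 0 to 4 with single times left out. The cause of these shifts was not tested. With 6 pooled libraries a genotype and 26 to 50 counts, depth limits Pou4f3 most.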
